A study of Caenorhabditis elegans with 5 samples.

Results

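The small and inducible heat shock genes described here are 10 of the 18217 genes of *Caenorhabditis elegans* named on the array: the 6 *hsp-16* genes (*hsp-16.1*, *hsp-16.11*, *hsp-16.2*, *hsp-16.41*, *hsp-16.48* and *hsp-16.49*), *hsp-17*, *hsp-12.6*, *sip-1* and *hsp-70*. They were found by gene symbol in the platform annotation, which tied 9 of the 22548 probe sets on the array to them. Of these, 7 carried 1 symbol and 2 were shared by paralogues, one by *hsp-16.1* and *hsp-16.11* and one by *hsp-16.48* and *hsp-16.49*, so the 2 genes of such a pair cannot be told apart. *sip-1* had 2 probe sets. All 9 probe sets were measured on all 5 arrays, and no value of theirs was under the floor explained below.

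Small heat shock proteins bind unfolding proteins and hold them in a form that can later be refolded, without using ATP, while HSP70 proteins bind and release their clients in a cycle driven by ATP. In the worm the *hsp-16* genes and *hsp-70* are nearly silent in unstressed animals and are switched on by heat and other stresses that damage proteins, through the heat shock transcription factor HSF-1. The *hsp-16* genes lie in pairs that are read in opposite directions from a shared stretch of promoter. *hsp-12.6* is known as a target of DAF-16, the transcription factor of the insulin pathway, and *sip-1* as a small heat shock protein of oocytes and embryos that is not heat inducible.

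RNA came from whole worms of mixed stages of the wild-type Bristol N2 strain, 100000 animals per group, grown for 10 days at 20 °C in the liquid medium CeMM. Ground controls were kept at 1 G, one at the operation site and one at the Tsukuba space center, and the treated groups were space flight (microgravity), clinorotation (a gravity vector of random direction, used on the ground as a model of microgravity) and hypergravity, for which the labels give both 3 G and 10 G. Each group was hybridised to 1 Affymetrix array, so no group has a replicate, pooled worms hide the spread between animals, and only the 2 controls, from different sites, can be pooled as 1 group. No site is labelled for the clinorotation and hypergravity worms, so site, culture and array cannot be told apart from treatment.

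Each signal below is the quantile scaled one, in arbitrary units, and each array is called by its group. A floor of 25.1, the 40th percentile of all scaled signals, was put under them, and 15115 probe sets had a mean log2 signal above it. Markers of the tissues of the worm were measured on these arrays: 8 of 8 probe sets of body wall muscle, 7 of 7 of intestine, 6 of 6 of hypodermis, 7 of 8 of neurons, 12 of 12 of oocytes and early embryos and 30 of 32 of sperm were above the floor on average. Signals of different probe sets are not compared with each other, because each binds its target with its own strength.

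The *hsp-16* genes were low on the operation-site and space flight arrays and high on the Tsukuba, clinorotation and hypergravity arrays. After quantile scaling the gap between the lowest high array and the highest low one was 6-fold or more. As deposited, before any scaling, *hsp-16.48* with *hsp-16.49* read 790 in space flight and 3395 in the Tsukuba array, a narrower gap. *hsp-16.41* read 129 in the operation-site array, 224 in space flight, 3889.8 in the Tsukuba array, 3711 in clinorotation and 3699 in hypergravity. *hsp-16.2*, its neighbour in the genome, read 274 and 571 on the operation-site and space flight arrays, against 6199, 5659 and 5642 on the Tsukuba array, clinorotation and hypergravity. For both genes the operation-site array was the lowest and the space flight array next, and the remaining arrays lay far above and close together.

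The shared probe set of *hsp-16.1* and *hsp-16.11* read 283 in the operation-site array and 584 in space flight. On the remaining arrays it read 5009.6 (Tsukuba control), 4816 (clinorotation) and 5009.6 (hypergravity), the first and last being equal because they had the same rank on their arrays. The shared probe set of *hsp-16.48* and *hsp-16.49* read 391 and 629.6 on the operation-site and space flight arrays, and 3899, 4145 and 3816 on the Tsukuba array, clinorotation and hypergravity. Its name carries the suffix that Affymetrix gives to probe sets whose probes may bind further sequences. The high arrays again did not overlap the low ones.

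The distance between the high and the low arrays differed among the *hsp-16* probe sets. The lowest of the Tsukuba, clinorotation and hypergravity signals was 16.52-fold above the higher of the operation-site and space flight signals for *hsp-16.41*. The same gap was 9.87-fold for *hsp-16.2*, 8.24-fold for *hsp-16.1* and *hsp-16.11* and 6.06-fold for *hsp-16.48* and *hsp-16.49*. Among the Tsukuba, clinorotation and hypergravity arrays the highest *hsp-16.41* signal was only 1.052-fold above the lowest, and for the other 3 *hsp-16* probe sets this ratio was 1.04 to 1.099.

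*hsp-17*, another small heat shock gene, parted the arrays in the same way over a narrower range. It read 494 in the operation-site array, 586 in space flight, 1199.7 in the Tsukuba array, 1527 in clinorotation and 1173 in hypergravity. The low and high arrays were apart by 2.001-fold after scaling. As deposited, before any scaling, space flight read 729 and the Tsukuba array 982, a narrower gap.

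*hsp-12.6* did not part the arrays in this way, though with quantile scaling the operation-site and space flight arrays were again the lowest. It read 619 in the operation-site array, 1054 in space flight and 1073 in the Tsukuba array, so that space flight and the Tsukuba array lay within 1.02-fold of each other. It was higher in clinorotation (1569) and highest in hypergravity (1915). Its whole range was 3.09-fold, and no wide gap parted the arrays into a low and a high set. As deposited, before any scaling, space flight read 1302 and the Tsukuba array 862, so the order of these arrays depends on the scaling.

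*sip-1* was nearly level and leaned the other way. Its first probe set read 7642 in the operation-site array, 6020.4 in the Tsukuba array, 8382 in space flight, 6809 in clinorotation and 7269 in hypergravity, a range of 1.39-fold. Its second probe set read 8907, 7333, 9378, 7783 and 8291 in the same order of arrays, a range of 1.28-fold. With quantile scaling both probe sets put space flight highest, the operation-site array next and the Tsukuba array lowest. Neighbouring arrays in this order differed by less than the 2 controls did from each other. Whether signals this high narrow the range was not tested.

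*hsp-70*, the inducible HSP70 gene, read 1788 in the operation-site array and 2341 in the space flight array. It read 8061 in the Tsukuba array, 8616 in clinorotation and 7934 in hypergravity. The gap between the low and high arrays was 3.39-fold, smaller than for any *hsp-16* probe set. Whether the high *hsp-70* signals narrow this gap was not tested. As deposited, before any scaling, the same signals were 1505, 2826, 7204, 8743 and 8849 for the operation-site array, space flight, the Tsukuba array, clinorotation and hypergravity. The separation was therefore present without scaling.

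**Figure D1:**
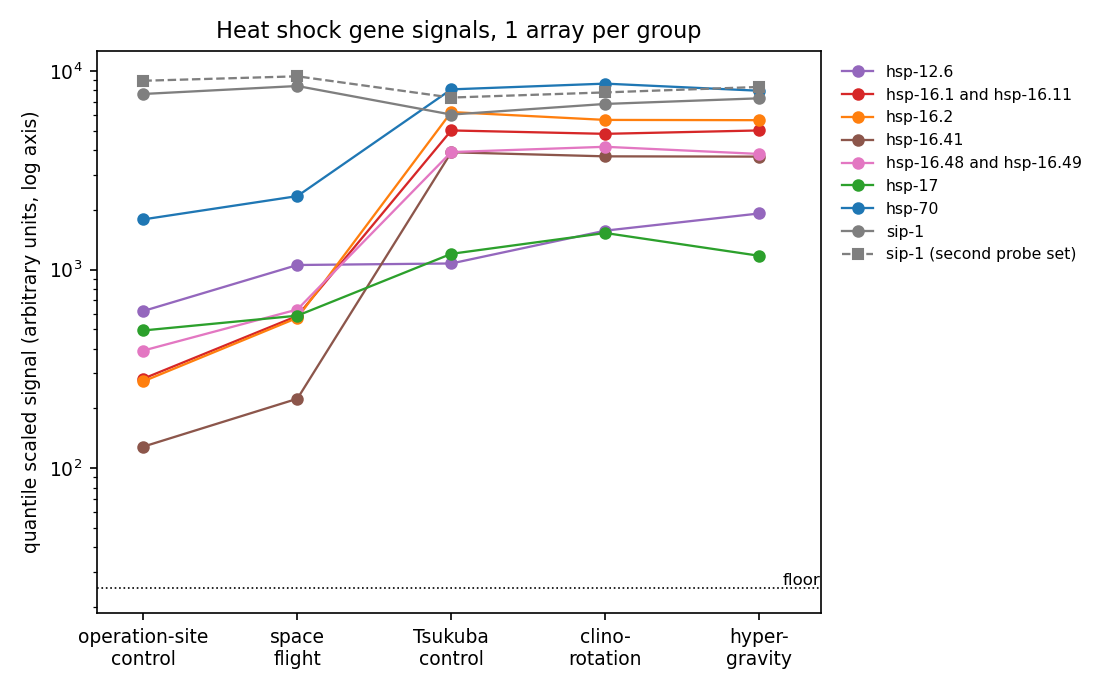
Quantile scaled signal (arbitrary units, log axis) of the 9 probe sets on the 5 arrays, 1 array per group; lines join the values of 1 probe set, the arrays have no natural order, and the dotted line is the floor of 25.1. The *hsp-16* genes, *hsp-17* and *hsp-70* are low in the operation-site array and space flight and high on the remaining arrays, while *hsp-12.6* climbs from 619 to 1915 and *sip-1* stays within 1.39-fold.

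The first comparison is between the 1 G ground controls. It shows how far these 2 untreated arrays differed, where site, culture and array cannot be told apart. Of the 9 probe sets, 6 were lower at the operation site by 2-fold or more and 0 at least 2-fold higher. Of all probe sets above the floor, 4% (604 of 15115) were lower by that much and 4.04% higher. The 6 were the 4 *hsp-16* probe sets, *hsp-70* and *hsp-17*. Their Tsukuba signals were higher by 4.92 (log2) for *hsp-16.41*, 4.4997 for *hsp-16.2*, 4.15 for *hsp-16.1* and *hsp-16.11*, 3.32 for *hsp-16.48* and *hsp-16.49*, 2.17 for *hsp-70* and 1.28 for *hsp-17*. *hsp-12.6* was higher at Tsukuba by 0.79 and *sip-1* differed by -0.34 and -0.28 in the direction Tsukuba minus operation site. With 1 array per site these differences have no test. The median over the 9 probe sets was -2.17 for operation site minus Tsukuba, where the median of all probe sets above the floor was 0.

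Ranked by how much higher they were at Tsukuba, *hsp-16.41* was number 2 of the 15115 probe sets, *hsp-16.2* number 4, the probe set of *hsp-16.1* and *hsp-16.11* number 8 and that of *hsp-16.48* and *hsp-16.49* number 15. *hsp-70* was number 62, *hsp-17* number 313 and *hsp-12.6* number 1045. *sip-1* stood at 11846 and 11267, among the probe sets that were lower at Tsukuba. A fold between probe sets depends also on how each responds, so the ranks describe these arrays only.

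**Figure D2:**
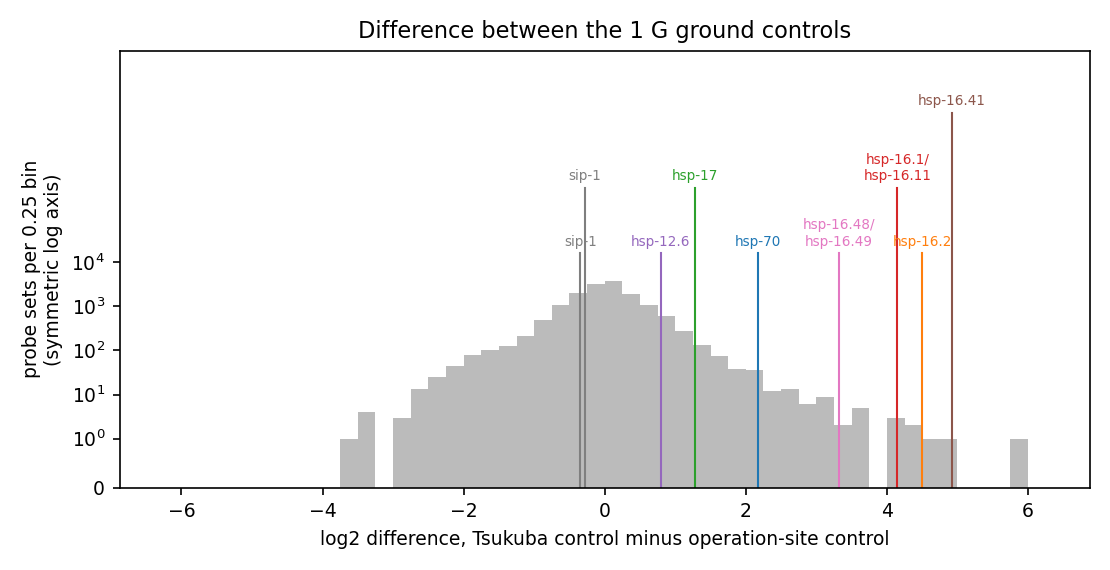
Number of probe sets (symmetric log axis) by log2 difference of the Tsukuba control minus the operation-site control, in bins of 0.25, for the 15115 probe sets above the floor; coloured lines mark the 9 heat shock probe sets at their value. The 4 *hsp-16* probe sets lie between 3.32 and 4.92, in the far right tail, and both *sip-1* probe sets lie left of 0.

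Other changes between the controls moved with these genes, and their part in the difference was not tested. Of 30 sperm probe sets above the floor, 28 were at least 2-fold higher at the operation site, where 4.04% of all probe sets were. Most of the 30 carry the suffix described above for *hsp-16.48* and *hsp-16.49*. They may therefore not be separate readings, and a sum may count a transcript more than once. The summed signal was 67414 at the operation site, 67552.5 in space flight, 19035 in the Tsukuba array, 14821 in clinorotation and 21750.3 in hypergravity. *spe-9* and *spe-38* were at the floor on all arrays. The sperm signal was thus high where the *hsp-16* signal was low. In RNA from whole animals, fewer cells of a type and less RNA per cell cannot be told apart. The summed signals of the oocyte and early embryo markers moved less, at 14937, 13329, 17683, 15056 and 19355 for the operation-site control, the Tsukuba control, space flight, clinorotation and hypergravity. Of these 12, 0 were 2-fold apart between the controls, where 8.04% of all probe sets were.

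The labels tie no treated group to either control, so each was set beside one control first and then beside both. Which control came first was chosen with the likeness of these arrays known, so a count against it describes these arrays and is not evidence that the treatment left the genes unchanged. Space flight was set beside the operation-site control. All 9 heat shock probe sets were higher in space flight, where 49.1% of all probe sets above the floor were higher and 43.8% lower. Of the 9, 2 were at least 2-fold higher, against 0.635% of all probe sets (96 of 15115), and 0 were 2-fold lower, against 1.11%. These were *hsp-16.2* (571 against 274, 2.09-fold) and *hsp-16.1* with *hsp-16.11* (584 against 283, 2.07-fold). *hsp-16.41* was higher by 1.74-fold, *hsp-12.6* by 1.70-fold and *hsp-16.48* with *hsp-16.49* by 1.61-fold. The *hsp-70* signal was 1.31-fold and the *hsp-17* signal 1.19-fold that of the control, and the *sip-1* probe sets read 1.097-fold and 1.053-fold. The median difference over the 9 was 0.69 (log2) and that of all probe sets 0. With trimmed mean scaling in place of quantile scaling the *sip-1* differences were -0.00 and -0.04 (log2), so their direction depends on the scaling.

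The space flight values of the *hsp-16* genes nonetheless stayed far below those of the Tsukuba control, as the gaps above show. Against the pair of controls, 0 of the 9 probe sets in space flight lay 2-fold outside them in either direction (0.629% of all probe sets did). Both *sip-1* probe sets lay above both controls with quantile scaling. With trimmed mean scaling neither did, at -0.00 and -0.04 (log2) from the operation-site control, the higher of the 2. The share of all probe sets above or between the controls was not counted. The 7 probe sets other than *sip-1* lay between the controls with quantile scaling, but as deposited *hsp-12.6* lay above both (1302 against 862 at Tsukuba). The direction from the control mean therefore rests on the choice of control: the members' median was -0.70 (log2) from the mean of both and 0.69 from the operation-site control alone, and against the Tsukuba control alone 6 of the 9 probe sets were at least 2-fold lower, where 5.41% of all probe sets were. In limma across 14401 probe sets, the smallest adjusted p of a member was 0.999, as it was over all probe sets.

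Clinorotation was set beside the Tsukuba control, to which its heat shock signals were already known to be close. Of the 9 probe sets, 0 were 2-fold apart in either direction, where 0.344% of all were higher and 0.265% lower. The *hsp-16* differences ran from -0.13 (log2, *hsp-16.2*) to 0.09 (*hsp-16.48* and *hsp-16.49*), and *hsp-70* differed by 0.10. *hsp-17* read 1527 against 1199.7, higher by 0.35, and *hsp-12.6* read 1569 against 1073, higher by 0.55. The median over the 9 was 0.09. Against the operation-site control alone the median was 2.27, and 7 of the 9 were at least 2-fold higher, where 3.78% of all probe sets were.

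Hypergravity was set beside the same control, which the 2 comparisons share and whose signals were likewise known to be close. Here too 0 of the 9 probe sets were 2-fold apart, where 0.82% of all were higher and 1.32% lower. The *hsp-16* differences ran from -0.14 to 0 (log2), *hsp-70* differed by -0.02 and *hsp-17* by -0.03. *hsp-12.6* was higher by 0.84, the largest difference among the 9 on this array, with 1915 against 1073. Against the operation-site control alone the median over the 9 was 2.15, and 7 of the 9 were at least 2-fold higher, where 4.38% of all probe sets were. *hsp-12.3*, the neighbour of *hsp-12.6* in the genome, a small heat shock gene of the same class, read 2843 in hypergravity, higher than in the Tsukuba array by 1.02 (log2), and 1442, 1567 and 1780.3 in the operation-site array, space flight and clinorotation.

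Against the pair of controls, 0 of the 9 probe sets lay 2-fold outside in clinorotation (0.159% of all did) or in hypergravity (0.86%). In clinorotation 4 of the 9 lay above both controls. The excess was 1.06-fold for *hsp-16.48* with *hsp-16.49*, 1.07-fold for *hsp-70*, 1.27-fold for *hsp-17* and 1.46-fold for *hsp-12.6*. With trimmed mean scaling the first 2 lay below the Tsukuba control, by -0.04 and -0.07 (log2). In hypergravity 1 did, *hsp-12.6*, by 1.78-fold. The share of all probe sets above both controls was not counted, so these counts give positions only. In limma *hsp-12.6* was the one member with an unadjusted p under 0.05 on either array. It lay above the mean of the controls by 0.95 ± 0.37 (log2 ± SE, limma adjusted p = 1.00) in clinorotation and 1.23 ± 0.37 (limma adjusted p = 0.998) in hypergravity. The *hsp-16.41* difference was larger in size, at 2.39 ± 1.90 in clinorotation and 2.39 ± 1.90 in hypergravity, with an adjusted limma p of 1.00 and 0.998. Its standard error is wide because the controls themselves differed by 4.92, an SD of 3.48 (n = 2). In limma 0% of probe sets (0 of 14401) passed an adjusted p of 0.05 in each of space flight, clinorotation and hypergravity, where 238, 63 and 391 had an unadjusted p under that value.

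Other genes of the heat shock response were likewise low on the operation-site and space flight arrays, several with a wider difference between the controls than *hsp-70*. *F44E5.4* and *F44E5.5*, neighbouring genes for inducible HSP70 proteins that share probe sets, read 407 in the operation-site array, 368 in space flight, 8116 in the Tsukuba array, 8133 in clinorotation and 8474 in hypergravity. This was 19.9-fold between the controls, and 11.6-fold on a second shared probe set. *hsp-110*, an HSP70 relative that helps HSP70 exchange nucleotide, read 763, 786, 5795, 5107 and 4722 for operation site, space flight, Tsukuba, clinorotation and hypergravity, and its second probe set gave 2.97-fold between the controls where the first gave 7.59-fold.

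Among the partners of HSP70 and HSP90, 4 of 15 genes were lower at the operation site by 2-fold or more and 0 higher. Of all probe sets, 4% were lower by that much and 4.04% higher. *unc-23*, a BAG-family co-chaperone of HSP70 in muscle and hypodermis, read 178 in the operation-site array, 156 in space flight, 1453 in the Tsukuba array, 1115 in clinorotation and 1245 in hypergravity. *dnj-13*, a DnaJ partner of HSP70, was 3.904-fold higher at Tsukuba than at the operation site (5.72-fold on a second probe set), and *dnj-19* and *bag-1* were 2.12-fold and 2.02-fold higher, while other probe sets of *dnj-19* gave 1.45-fold and 2.41-fold. The constitutive members moved less: the cytosolic HSP70 gene *hsp-1* was 1.36-fold and *hsp-90*, the HSP90 gene that is also called *daf-21*, 1.25-fold higher at Tsukuba. Both read high at the operation site already, at 6212 and 7079. Whether such high signals narrow a fold was not tested.

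The endoplasmic reticulum chaperone gene *hsp-4*, which responds to unfolded proteins in that organelle, was 2.34-fold higher at Tsukuba (2609 against 1113). The mitochondrial HSP70 gene *hsp-6* was 1.35-fold and the mitochondrial HSP60 gene *hsp-60* 1.19-fold higher. Among 8 probe sets of other HSP70 and HSP110 genes, 3 were lower at the operation site by 2-fold or more, where 4% of all were. The median of the 8 was -0.45 (log2, operation site minus Tsukuba). Over the 15 of HSP90, HSP60 and co-chaperones the median was -0.38.

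The list of other small heat shock genes held 9, of which 2 were higher at Tsukuba by 2-fold or more and 1 lower. Of all probe sets, 4% were higher and 4.04% lower there. *hsp-43*, a large member of the family, read 351, 324, 1154, 1196 and 1126 for operation site, space flight, Tsukuba, clinorotation and hypergravity. *hsp-16.21*, a relative of the *hsp-16* genes, read 71.4, 149.6, 231, 433 and 381 in the same order, and *hsp-16.20*, another relative, 101, 166, 183, 272 and 232. For both, clinorotation was the highest array and space flight was above the operation-site control. *hsp-12.2* went the other way, at 969 in the operation-site array, 556 in space flight and at 355, 453 and 467 for Tsukuba, clinorotation and hypergravity.

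In space flight against the operation-site control the other genes of the response were not all higher, as the *hsp-16* signals were. *hsp-16.21* was higher by 1.07 (log2) and *hsp-16.20* by 0.72, near the 0.69 to 1.06 of the 4 *hsp-16* probe sets. *F44E5.4* and *F44E5.5* differed by -0.15, *unc-23* by -0.19, *dnj-13* by -0.19, *hsp-43* by -0.11 and *hsp-110* by 0.04. The sign of some of these depends on the scaling. With median scaling *F44E5.4* with *F44E5.5* stood at 0.04 and *hsp-43* at 0.07. With no scaling the first 4 turn positive, at 0.46 (*F44E5.4* and *F44E5.5*), 0.35 (*unc-23*), 0.41 (*dnj-13*) and 0.49 (*hsp-43*), on a scale where the median of all probe sets was 0.50. Second probe sets gave other sizes under quantile scaling, at -0.66 for *F44E5.4* and *F44E5.5* and 0.44 for *hsp-110*. Over the 32 probe sets of the 3 chaperone lists, 20 were above and 9 below the operation-site control in space flight, with a median of 0.07. Of all probe sets above the floor, 49.1% were above and 43.8% below. Of the 32, 1 was at least 2-fold higher and 0 lower, against 0.635% and 1.11% of all probe sets. Whether the *hsp-16* genes differ in this from the other chaperone genes was not tested.

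**Figure D3:**
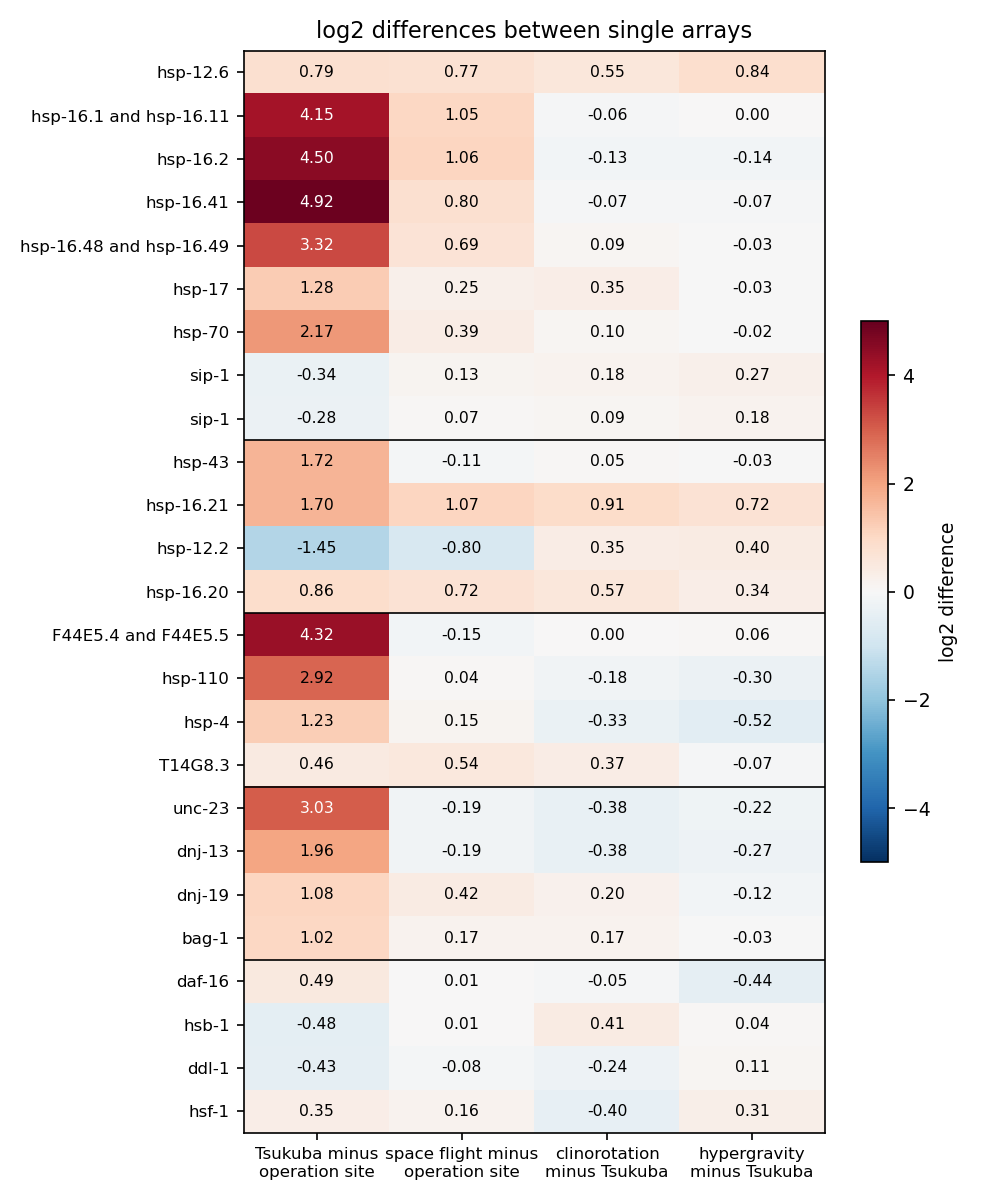
log2 differences between single arrays for the 9 heat shock probe sets (top block), then up to 4 genes each from the lists of other small heat shock proteins, other HSP70 and HSP110 genes, HSP90 and HSP60 with co-chaperones, and regulators of the heat shock factor. The first column (Tsukuba minus operation site) holds the large values, up to 4.92 for *hsp-16.41*, and the clinorotation and hypergravity columns, which share the Tsukuba control, stay within 0.91 of 0.

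The genes that control the heat shock factor showed no 2-fold difference between the controls on the probe set with the highest mean signal. *hsf-1*, which encodes the factor, read 115 in the operation-site array, 129 in space flight, 147 in the Tsukuba array, 111 in clinorotation and 182 in hypergravity, and its second probe set was lower at Tsukuba than at the operation site by -0.31 (log2) where the first was higher by 0.35. *hsb-1* and *ddl-1*, whose products hold HSF-1 inactive, were lower at Tsukuba by -0.48 and -0.43. *daf-16* was higher at Tsukuba by 0.49, and its other 3 probe sets gave 0.46, 0.09 and 1.11, the last over 2-fold. Of 5 regulators above the floor, 0 were 2-fold apart by that probe set, where 8.04% of all probe sets were. So few genes cannot be told apart from that share. *ddl-2* was at the floor on all arrays.

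Genes of other stress responses are set beside the 8.04% of all probe sets that were 2-fold apart between the controls. Of 9 genes of metal, oxidative and osmotic stress, 1 was lower at the operation site by 2-fold or more, *gst-10*, a glutathione transferase gene (154 against 322.5, under 2-fold with trimmed mean scaling), and 0 were higher. *mtl-1*, a metallothionein gene, was lower at Tsukuba by -0.42 (log2), and *gpdh-1*, an enzyme gene of glycerol synthesis that responds to osmotic stress, by -0.75. Among 9 DAF-16 targets 0 were 2-fold apart between the controls, with *lys-7*, a lysozyme gene, lower at Tsukuba by -0.90 and *icl-1*, the gene of the glyoxylate cycle enzyme, higher by 0.58.

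Position in the genome was described from the order of protein-coding genes in the RefSeq table of assembly WBcel235. *hsp-16.1*, *hsp-16.48*, *hsp-16.49* and *hsp-16.11* follow each other there with no other protein-coding gene between them, and *hsp-16.2* and *hsp-16.41* stand next to each other. *srt-41* and *srt-42*, chemoreceptor genes on either side of the second group, were at the floor on all 5 arrays. *T27E4.7*, beside *hsp-16.1*, read 567, 395, 1026, 1091 and 630.2 for operation site, space flight, Tsukuba, clinorotation and hypergravity, higher at Tsukuba by 0.86 (log2) and by 1.37 on a second probe set. *T27E4.1*, beside *hsp-16.11*, was higher there by 0.24. Of 8 probe sets above the floor for genes directly beside a member, 6 were less than 2-fold apart between the controls. At Tsukuba 1 was higher and 1 lower, where 4% and 4.04% of all probe sets were. These neighbours were looked up after the values of the heat shock genes were known.

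Likeness of profile was measured as the root mean square difference of centred log2 signals over the 5 arrays, among 14313 probe sets of 1 named gene. The probe sets most like *hsp-70* were those of *F19B2.5* (0.06), *Y17G7B.17* (0.07), *mnk-1* (0.08 and 0.09 on 2 probe sets) and *vig-1* (0.09). *F19B2.5* read 502, 2489, 647, 2414 and 2172 for the operation-site control, the Tsukuba control, space flight, clinorotation and hypergravity. *hsp-17* lay at 0.38 from *hsp-70* and *hsp-16.48* with *hsp-16.49* at 0.49. For *hsp-16.41*, the *hsp-16* probe set that varied most, *hsp-16.2* lay at 0.30, and the nearest probe sets of 1 gene outside the 10 were *clec-266*, a C-type lectin gene (0.27), the collagen genes *dpy-14* (0.35) and *dpy-17* (0.48), *fipr-25* (0.56) and *nhr-17*, a nuclear hormone receptor gene (0.57). When probe sets shared by several genes were let in, after values were seen, the 2 of *F44E5.4* and *F44E5.5* came at 0.30 and 0.53, ranks 2 and 5 among 14827 for *hsp-16.41*, and the 5 nearest *hsp-70* stayed the same. *clec-266* read 26.7, 505, 33.7, 458 and 609.9 in the order used for *F19B2.5*. Some of these profiles are cut off by the floor, so their distances depend in part on it. *fipr-25* was at the floor on the operation-site and space flight arrays. *dpy-14* and the nearer *mnk-1* probe set were at the floor on the operation-site array.

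The difference between the controls depended less on how the arrays were processed than that between space flight and the operation site. Over 7 settings of scaling and floor, the operation-site minus Tsukuba difference of *hsp-16.41* ran from -5.04 to -4.76 (log2), that of *hsp-16.2* from -4.68 to -4.42 and that of *hsp-70* from -2.39 to -2.16. The space flight minus operation-site difference ran from 1.02 to 1.60 for *hsp-16.2*, from 0.73 to 1.36 for *hsp-16.41* and from 0.66 to 1.26 for *hsp-16.48* with *hsp-16.49*, the highest being without scaling. The last pair of ranges spans 2-fold, and without scaling 5 of the 9 probe sets were at least 2-fold higher in space flight, where 6.17% of all probe sets were.

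**Figure D4:**
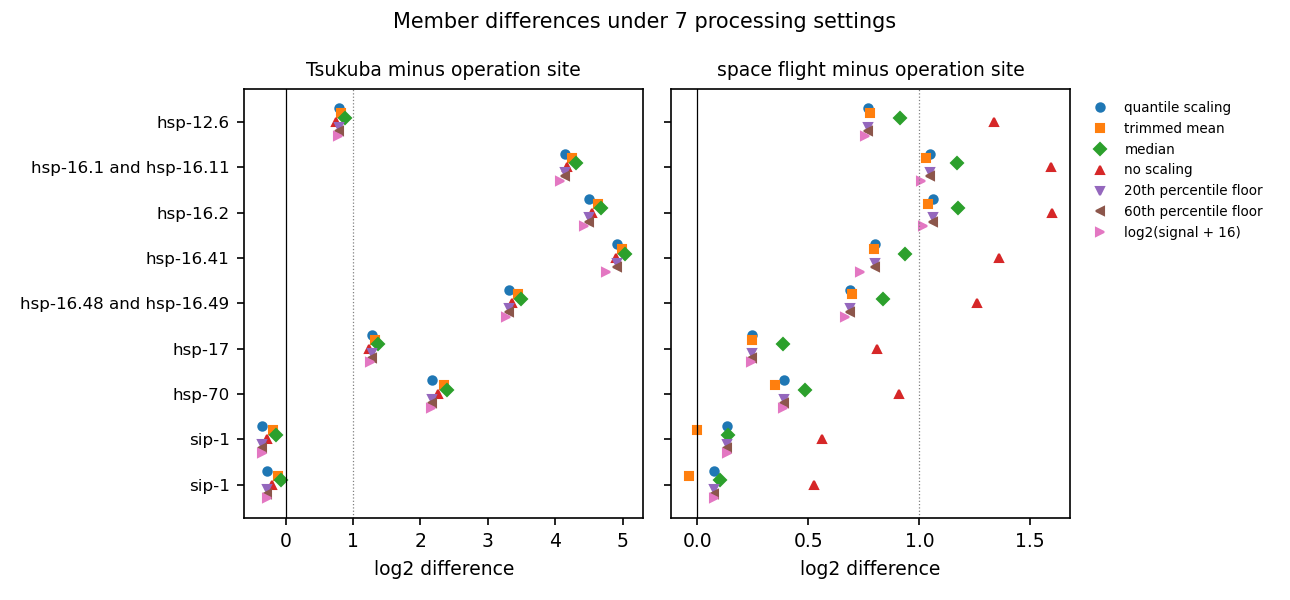
log2 differences of the 9 heat shock probe sets under 7 settings of scaling and floor, for the Tsukuba control minus the operation-site control (left) and space flight minus the operation-site control (right); the dotted line marks 2-fold. On the left the settings nearly coincide, and on the right the values without scaling lie to the right of the rest, up to 1.60 for *hsp-16.2*.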

How the data were processed

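RNA was measured on 5 one-colour Affymetrix arrays, 1 per group, from 15 µg of total RNA extracted with ISOGEN, per the labels' protocols. Each deposited file lists an intensity for every probe set, linear and between 0.1 and 13519.3. For the step from probe cells to probe sets, the method was not given in the sources used here. Array medians ran from 38.8 to 57.1, so no common scaling had been applied.

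Names came from the platform annotation in GEO, in which 20766 carried 1 symbol, 887 several and 895 had no entry. Arrays were quantile scaled, floored at the 40th percentile and put on the log2 scale. The files give no background limit, and the floor takes its place. For listed genes the probe set with the highest mean was used, and a probe set shared by listed genes counted once. Calls without a test are differences of at least 2-fold. limma 3.58.1 in R 4.3.3 (lmFit, eBayes with an intensity trend, two-sided, Benjamini-Hochberg) took the controls as 1 group, with 1 residual degree of freedom. Each lone array is assumed to vary like the controls, and the p-values rest on the spread of these arrays alone, whose number limits all precision. Probe sets with equal signals in both controls, whether at the floor or above it, have no measured spread and were left out, which left 14401. This was decided when the computation was tested on simulated data.

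The members and lists were chosen with earlier results of these data known. Genes outside the 10 were named by rule: up to 4 per list by size of the difference between the controls, and the 5 nearest profiles. *hsp-1*, *hsp-90*, *hsp-6*, *hsp-60*, *hsp-12.3* the shared probe sets in the list of nearest profiles and the genome neighbours were named after their values were seen. The tissue lists of body wall muscle, intestine, hypodermis and neurons were used only to check the sample type, with summed signals that ran from 8214 to 11297, 17634 to 23250.3, 12242 to 16355 and 5826 to 7641. Promoter and protein sequences were not analysed here. Scaling, the floor, the trend and each control were varied.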

Additional observations from a re-analysis of the deposited data

How the results depend on the processing

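Without scaling, the median of all probe sets rose by 0.50 (log2) in space flight against the operation-site control, by 0.31 in clinorotation and by 0.38 in hypergravity against the Tsukuba control. The members' median was then 1.26 in space flight against the operation-site control with 5 of them at least 2-fold higher (6.17% of all probe sets, against 0.635% with quantile scaling), and 0.43 in hypergravity against the Tsukuba control, reversed from -0.02, with 1 (*hsp-12.6*) 2-fold higher there (7.11% of all) and 1 2-fold above both controls (2.27%). Of all calls in space flight against the operation-site control 36.4% were higher, against 24.7% with trimmed mean scaling, 52.97% with median scaling and 98.6% without scaling. For hypergravity against the Tsukuba control the shares were 38.3%, 27.9%, 56.4% and 96.5%, for clinorotation 56.5%, 44.7%, 65.2% and 96.6%, and between the controls (operation site over Tsukuba) 50.3%, 54.4%, 49.6% and 63.9%.

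Leaving out 1 control gave, for space flight, a members' median from -1.78 to 0.69 (log2), 0 to 2 members at least 2-fold higher and 0 to 6 lower. Of all probe sets, 5.41% were lower against the Tsukuba control alone and 0.635% higher against the operation-site control alone. For clinorotation the members' median ran from 0.09 to 2.27 and the count of higher members from 0 to 7, and for hypergravity from -0.023 to 2.15 and from 0 to 7. The 7 were against the operation-site control alone, where 3.78% and 4.38% of all probe sets were higher. The cause was not tested beyond the difference between the controls given above. Over the single probe sets, comparisons and settings, 405 values kept their side of the 2-fold threshold. Another 27 passed it where the main value had not. Only 6 main values between the controls and 2 in space flight against the operation-site control were called. Of these 0 lost the call or reversed. A change of direction was not counted for the rest. For *hsp-16.2* in space flight the difference turned from -1.19 (log2, against the mean of both controls) to 1.06 (against the operation-site control alone). limma called 0 members in each condition under every setting of scaling, floor and trend. Lifting the filter on the floor was no separate check, as it gave the same fit of 14401 probe sets. Those let in were at the floor on every array and were left out again for lack of spread between the controls. A floor at the 20th or 60th percentile moved no member difference or count, since no member was under either floor. These settings therefore add to the 405 without testing them. No paired analysis was possible because the labels give no replicate numbers and each condition has 1 array. The planned promoter motif alternative was not run. Signal over background limits low probe sets only, and all 9 members were above the floor on every array.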
